A study of Mus musculus with 111 samples.

Results

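B1_SINE and B2_SINE are 2 repeat entries among the 36137 gene-level features of a single-embryo RNA-seq data set, picked here by their row names in the authors' table of estimated counts. Each row collects reads that can be placed on the sequence of a repeat family, so it names a family and no single place in the genome. The embryos were mouse 2-cell embryos of strain B6129F1, in 3 experiments. Immature oocytes had received a set of 2 siRNAs against Nr5a2, an orphan nuclear receptor, or control siRNAs, at 20 µM each, together with 150 ng/µl of marker RNA. That marker was H2B-rsEGFP RNA in knockdown oocytes and H2B-EGFP RNA in control oocytes. The marker thus changed with the arm, and its part in a difference between arms cannot be told apart from that of the siRNAs. All were held in meiotic arrest for 5 h, matured for 12 h, fertilized in vitro and grown in KSOM. The knockdown arm had 16 embryos in experiment 1, 16 in experiment 2 and 23 in experiment 3, and the control arm had 24, 7 and 25. The control siRNA sequences and the clutches from which embryos came are not given in the labels, and the p-values therefore reflect embryo-to-embryo scatter within an experiment. siRNA lowers a transcript without removing the gene, and protein already stored in the oocyte was not measured.

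B1 and B2 are the commonest short interspersed elements of the mouse genome. B1 descends from 7SL RNA, the RNA of the signal recognition particle, and B2 from a transfer RNA, and both keep an internal promoter for RNA polymerase III whose B box is bound by the factor TFIIIC. Copies also sit in introns and in untranslated ends of ordinary genes, where RNA polymerase II reads through them, and transcripts of both families are abundant when the mouse embryonic genome is activated. Some B1 copies hold letters like the DNA motif of NR5A2, the protein made from Nr5a2, which is what gives the rows their interest in a knockdown of this gene.

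The sequences that the authors put in their index were not used here. To show what such rows can collect, runs of letters were rebuilt from 13013 noncoding genes of GENCODE M21 (GRCm38). Frequent stretches of 31 bases were extended, and the 2 commonest runs of at most 300 bases with a B box were kept. Each was oriented by that box, so its presence and strand were set by the choice. The runs are 140 bases for B1 and 74 bases for B2 (upper strand of the element, 5′ to 3′), and the capitals mark the B box, found by its consensus: GTTC, any base, A, 2 further bases of any kind, then CC.
B1 run: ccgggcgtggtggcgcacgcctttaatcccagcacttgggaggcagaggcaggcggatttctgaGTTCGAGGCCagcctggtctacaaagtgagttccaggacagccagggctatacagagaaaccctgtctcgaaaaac
B2 run: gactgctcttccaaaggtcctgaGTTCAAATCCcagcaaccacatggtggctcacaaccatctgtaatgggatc
The B box lies at bases 65 to 74 of the B1 run and 24 to 33 of the B2 run. The run with the longer stretch shared with annotated 7SL RNA genes was named B1. That stretch was 14 bases in the B1 run and 7 in the B2 run, so these lengths do not test the names. The most frequent stretch of 31 bases occurred in 186 noncoding genes for B1 and in 174 for B2. The monomer motif of NR5A2, searched as TCAAGGTCA and TCAAGGCCA on both strands, was in neither run. The B1 run holds TCGAGGCCA, which starts at base 67 and overlaps its B box. For scale, in 32851 RefSeq promoters (GRCm38.p6, 250 bases before to 50 after the start) TCAAGGTCA was in 0.423%, TCAAGGCCA in 0.591%, TCGAGGCCA in 0.210% and the B box pattern in 3.32%.

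The knockdown was visible in the target. Nr5a2, summed over its annotated transcripts, had a median of 48.3 CPM (lowest 10.3, highest 105) in the 55 knockdown embryos and 105 CPM (lowest 35.8, highest 222) in the 56 control embryos, and 0 of 55 knockdown embryos exceeded the median of the controls run alongside. Knockdown over control, this is a log2 ratio of -1.17 ± 0.12 (SE), with an adjusted p of 3.71e-12 in edgeR's quasi-likelihood test. A further row under the Nr5a2 gene identifier, kept apart because its sequence is not known, had a log2 ratio of 0.19, with an edgeR adjusted p of 0.632. Libraries held 1.97 to 21.4 M estimated counts (M stands for 1000000), with a median of 4.78 M, and the groups' medians lay between 3.68 and 5.40 M. Of 13 markers of cumulus and granulosa cells, 8 stayed below 10 CPM in every embryo, and their sum had a median of 108 CPM in both arms (10.7 to 243 in knockdown and 25.7 to 179 in control embryos), most of it Amhr2 with a mean of 88.5 CPM. All 10 sperm markers stayed below 10 CPM, with Prm3 at 0, and summed to a median of 1.59 CPM in knockdown and 2.09 CPM in control embryos.

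Both repeat rows were detected in every embryo. B1_SINE held 92.9 to 934 estimated counts per embryo, and B2_SINE 54.5 to 1579. At the median count, counting error alone is 6.82% of the value for B1_SINE and 6.24% for B2_SINE. It covers counting error only, since the libraries carry no molecular identifiers.

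B1_SINE had group medians between 39.9 and 54.3 CPM (estimated counts per M of the library's total). In experiment 1 the level in knockdown embryos lay between 23.5 and 115 CPM with a median of 53.8 CPM, against 21.8 to 99.4 CPM with a median of 42.2 CPM in control embryos. In experiment 2 it lay between 29.5 and 76.1 CPM with a median of 50.4 CPM in knockdown embryos, against 33.4 to 83.3 CPM with a median of 54.3 CPM in control embryos. In experiment 3 it lay between 27.8 and 129 CPM with a median of 43.6 CPM in knockdown embryos, against 21.3 to 62.7 CPM with a median of 39.9 CPM in control embryos. The arms overlapped in each experiment, and 33 of 55 knockdown embryos exceeded the median of the controls of the same experiment.

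B2_SINE varied more, between experiments as well as between embryos. In experiment 1 it lay between 29.96 and 116 CPM with a median of 64.8 CPM in knockdown embryos, against 15.7 to 82.7 CPM with a median of 31.3 CPM in control embryos. In experiment 2 it lay between 15.7 and 98.4 CPM with a median of 51.5 CPM in knockdown embryos, against 25.0 to 91.1 CPM with a median of 66.5 CPM in control embryos. In experiment 3 it lay between 23.1 and 170 CPM with a median of 68.6 CPM in knockdown embryos, against 15.3 to 151 CPM with a median of 55.2 CPM in control embryos. The arms overlapped in every experiment. In experiment 1, 15 of 16 knockdown embryos exceeded the median of its controls, in experiment 2 it was 3 of 16 and in experiment 3 it was 17 of 23. Within groups the SD on the log2(CPM + 1) scale was 0.48 for B1_SINE and 0.68 for B2_SINE. Among features of like level, the B1_SINE spread ranked at percentile 16.4 and the B2_SINE spread at percentile 57.9.

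**Figure D1:**
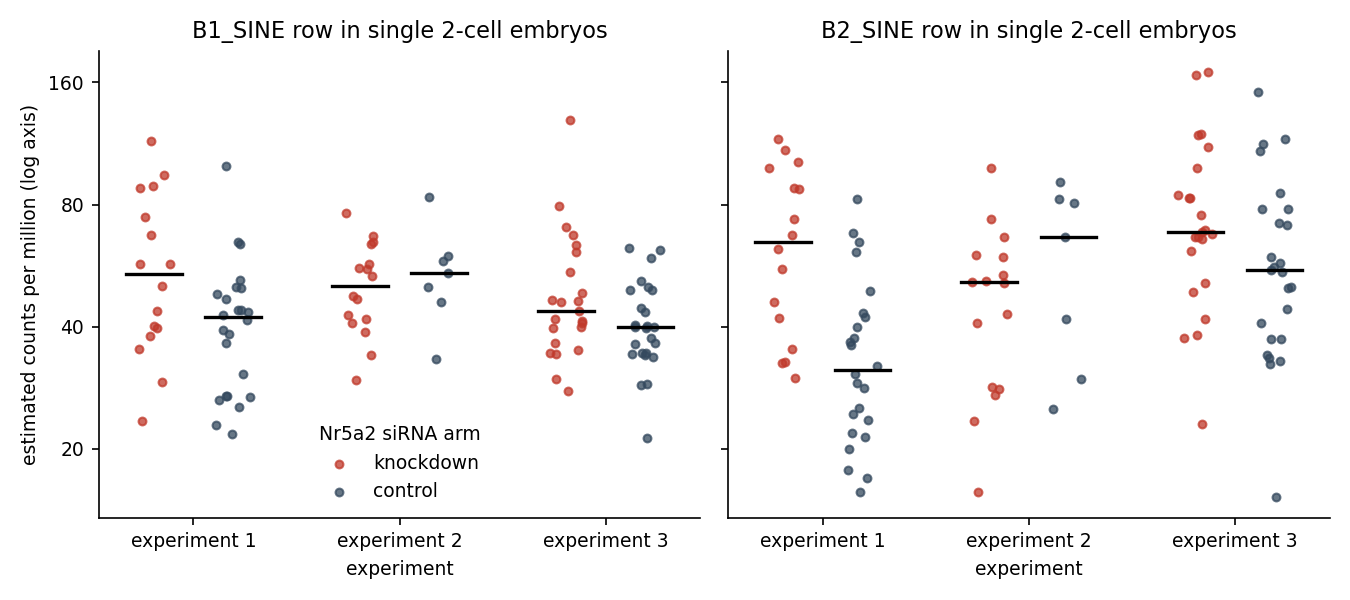
Level of each repeat row in every embryo, in CPM on a log axis, by experiment, with knockdown embryos (red) left of control embryos (dark blue-grey) and a bar at each median. B2_SINE medians in experiment 1 are 64.8 CPM in knockdown and 31.3 CPM in control embryos, and in experiment 2 they are 51.5 and 66.5 CPM in the same order of arms.

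Over all 111 embryos both rows had a positive log2 ratio of knockdown over control, and neither passed the test across all features. For B1_SINE it was 0.31 ± 0.099 (SE, 95% interval 0.12 to 0.50, edgeR adjusted p = 0.116) and for B2_SINE 0.44 ± 0.14 (SE, 95% interval 0.17 to 0.71, edgeR adjusted p = 0.101). The fit called 148 of 13451 features (1.1%), 85 higher (0.632%) and 63 lower (0.468%), and its median log2 ratio was 0.02. With library totals in place of TMM (edgeR's trimmed-mean scaling) the split was 58 higher and 69 lower. By p-value 238 features ranked before B1_SINE and 220 before B2_SINE. On the scale of the row alone, the mean log2(CPM + 1) was higher in knockdown than in control embryos by 0.24 for B1_SINE (SE 0.093, two-sided permutation p = 0.0112, adjusted over 3 measures 0.0169) and by 0.43 for B2_SINE (SE 0.13, permutation p = 0.00258, adjusted 0.00774). The difference rested on which experiments were included. Without experiment 1 these level differences were 0.13 for B1_SINE (permutation p = 0.202) and 0.17 for B2_SINE (permutation p = 0.335), and without experiment 3 that of B1_SINE was 0.25 (permutation p = 0.0764). Without experiment 1 the edgeR log2 ratio was 0.23 for B1_SINE (adjusted p = 0.793) and 0.20 for B2_SINE (adjusted p = 0.989). Without experiment 2 it was 0.41 for B1_SINE (adjusted p = 0.037) and 0.62 for B2_SINE (adjusted p = 0.00988), and both rows were called. The authors' deposited table gives B1_SINE 0.18 on the log2 scale, with SE 0.11 and a DESeq2 adjusted p of 0.881. In the same direction of comparison it gives the Nr5a2 transcript ENSMUST00000192929.5 as -1.56. Another deposited table, named for a 10th percentile threshold, gives B1_SINE 0.22, with SE 0.12 and a DESeq2 adjusted p of 0.703. No entry named B2_SINE was found in either.

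Experiment by experiment, B2_SINE rose in experiment 1 and no other single comparison of either row was called. In experiment 1 B2_SINE had a log2 ratio of 0.88 ± 0.22 (SE), with an edgeR adjusted p of 0.0199, in a comparison that called 0.929% of features, 0.803% higher and 0.126% lower. That of B1_SINE was 0.46 ± 0.16, with an adjusted p of 0.206. In experiment 2 the values were -0.32 for B2_SINE (SE 0.31) and -0.10 for B1_SINE (SE 0.23), both with an edgeR adjusted p of 0.999. That comparison called 0 features, with 516 at an unadjusted p under 0.05, and it has 7 control embryos. Nr5a2 itself was thus not called in experiment 2, with medians of 48.7 CPM in knockdown and 105 CPM in control embryos. In experiment 3 they were 0.41 for B2_SINE (SE 0.20, edgeR adjusted p = 0.662) and 0.37 for B1_SINE (SE 0.15, adjusted p = 0.547), where 0.149% of features were called, 0.0818% higher and 0.0669% lower. The 95% interval of B2_SINE in experiment 2, -0.92 to 0.29, did not reach its estimate in experiment 1. A permutation of the arms within experiments put the difference of the B2_SINE effect between experiments at p = 0.0123 (adjusted over 3 measures 0.0369), and that of B1_SINE at p = 0.127. The interaction test across all features did not call either row (edgeR F = 5.09, adjusted p = 0.651 for B2_SINE, and F = 2.15, adjusted p = 0.937 for B1_SINE). It called 2 of 13451 features (0.0149%).

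**Figure D2:**
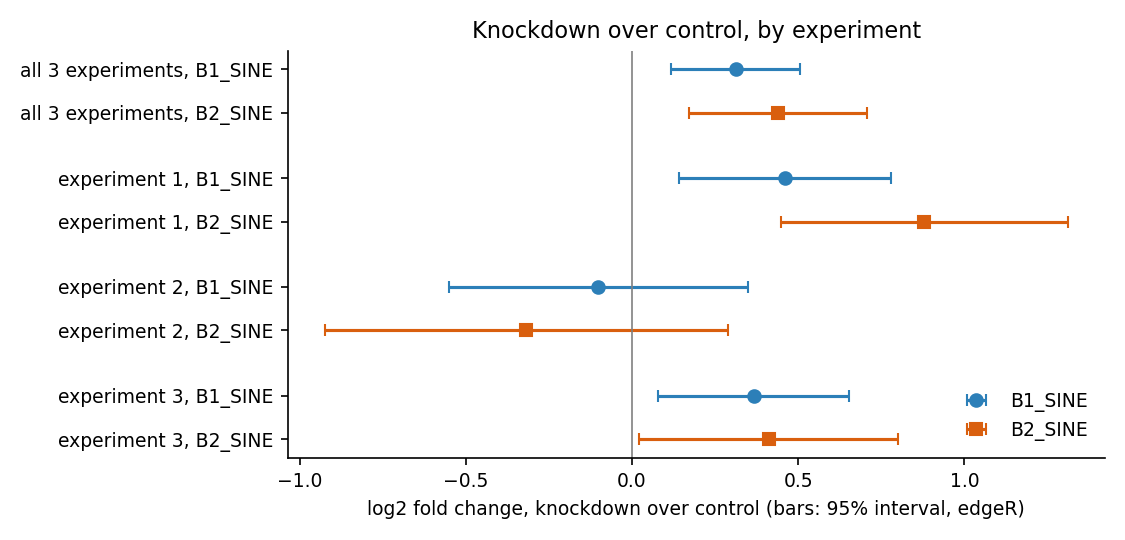
Log2 fold change of each row, knockdown over control, over all embryos and in each experiment, with 95% intervals from the edgeR fit. B2_SINE stands at 0.88 in experiment 1, -0.32 in experiment 2 and 0.41 in experiment 3.

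The experiments also differed in the B2_SINE level of the same arm. In control embryos B2_SINE was lower in experiment 1 than in experiment 3, with a log2 difference of -0.80 (SE 0.20, edgeR adjusted p = 0.00407), in a comparison that called 9.14% of features. Control embryos of experiment 1 against experiment 2 gave -0.74 (SE 0.28, edgeR adjusted p = 0.125, 4.9% of features called), and experiment 2 against experiment 3 gave -0.05 (SE 0.30, edgeR adjusted p = 0.970, 1.61% called). In knockdown embryos the order was another one. Experiment 2 was lower than experiment 3 by a log2 difference of -0.78 (SE 0.23, edgeR adjusted p = 0.0115, 14.7% called), experiment 1 against experiment 2 gave 0.46 (SE 0.24, adjusted p = 0.208, 14.2% called), and experiment 1 against experiment 3 gave -0.33 (SE 0.23, adjusted p = 0.578, 2.24% called). No difference of B1_SINE between experiments was called in these contrasts, which reuse the same embryos and lay between -0.38 and 0.41. The experiment label is the only record of a batch here, and a batch cannot be told apart from what else differed between experiments.

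The balance of the rows was set as the log2 ratio of their counts within each embryo, which library size does not touch. The index lengths of the rows are not known, so only changes of this ratio are compared. In experiment 1 its mean was -0.19 (SD 0.41, n = 16) in knockdown embryos and 0.28 (SD 0.42, n = 24) in control embryos, a difference of -0.46 (SE 0.13, permutation p = 0.00155, adjusted over 9 tests 0.00697). In experiment 2 it was 0.18 (SD 0.71) in knockdown and -0.01 (SD 0.67) in control embryos, a difference of 0.19 (exact permutation p = 0.560). In experiment 3 it was -0.59 (SD 0.51) in knockdown and -0.47 (SD 0.76) in control embryos, a difference of -0.12 (permutation p = 0.515). Over all embryos the difference was -0.19 (SE 0.11, permutation p = 0.101, adjusted over 3 measures 0.101). In experiment 1 the embryos of the knockdown thus held more B2_SINE per B1_SINE count, with overlapping arms (-0.76 to 0.60 in knockdown and -0.60 to 0.86 in control embryos).

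Across embryos the rows moved together, more firmly in some groups than in others. Pearson's r between log2 levels was 0.81 in knockdown (permutation p = 0.00019, adjusted over 6 groups 0.00057, Spearman's rho 0.81) and 0.77 in control embryos of experiment 1 (permutation p = 2e-05, adjusted 0.00012, rho 0.79). In experiment 3 it was 0.68 in knockdown embryos (permutation p = 0.00036, adjusted 0.00072, rho 0.60) and 0.19 in control embryos (permutation p = 0.374, rho 0.15). In experiment 2 it was 0.24 in knockdown embryos (permutation p = 0.372, rho 0.11) and 0.47 in the 7 control embryos (exact permutation p = 0.317, rho 0.64). Without the 2 embryos farthest from the median B2_SINE level, the 3 groups with a small p kept r at 0.83, 0.71 and 0.62. The knockdown group of experiment 2 then had r = -0.09. Pooled after centring each group on its mean, r was 0.56 and rho 0.49 over 111 embryos (permutation p = 1e-05 for each, the smallest that 100000 permutations can give).

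**Figure D3:**
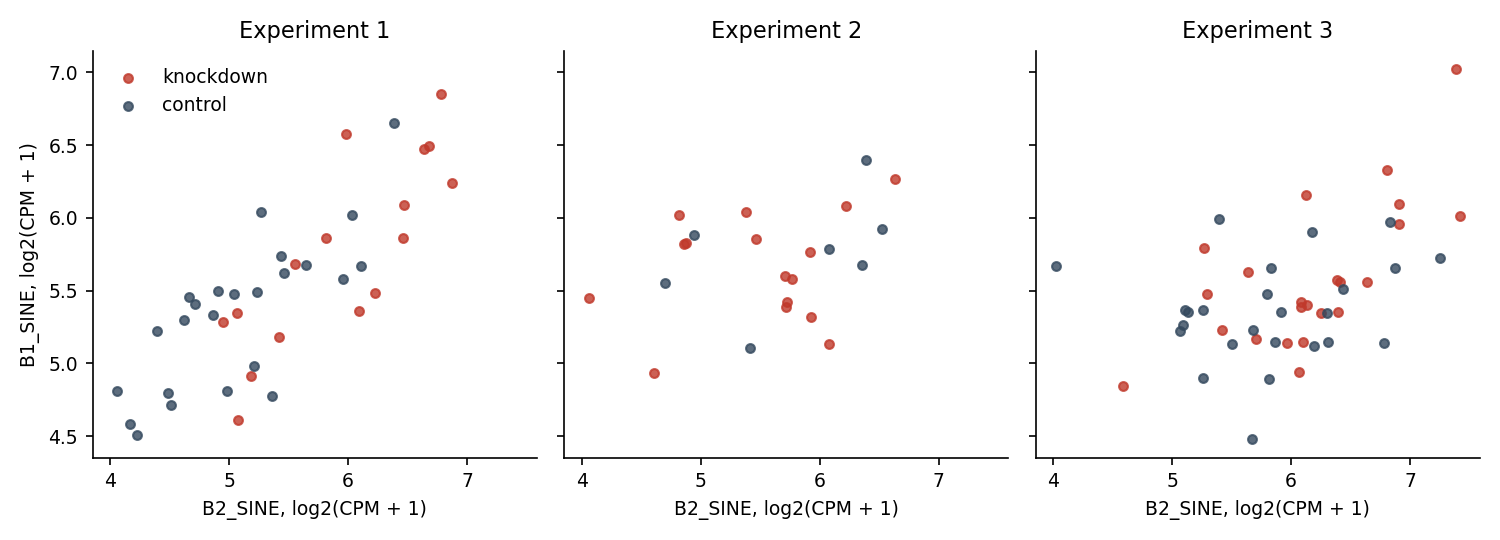
B1_SINE against B2_SINE level in each embryo, on the log2(CPM + 1) scale, with knockdown (red) and control embryos (dark blue-grey) in a panel for each experiment. The points follow a slope in experiment 1 in both arms (r = 0.81 in knockdown, 0.77 in control embryos), and in experiment 3 in knockdown embryos (r = 0.68), while its control embryos scatter (r = 0.19).

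Of 6 properties of an embryo, 3 went with the B2_SINE level and 2 with the B1_SINE level after centring on the group means. The tests were adjusted over 13 correlations, the pair of rows included. With the mitochondrial score, the mean log2 level of the 13 protein-coding mitochondrial genes, r was 0.47 for B2_SINE (permutation adjusted p = 6.5e-05) and 0.40 for B1_SINE (adjusted p = 0.000303). With the 2-cell score, the mean log2 level of 26 transcripts of the embryonic activation wave such as the Zscan4 family, r was 0.38 for B2_SINE (permutation adjusted p = 0.000325) and 0.18 for B1_SINE (adjusted p = 0.106). With the number of genes detected r was 0.29 for B2_SINE (permutation adjusted p = 0.00629) and 0.25 for B1_SINE (adjusted p = 0.0304). The score of 39 oocyte transcripts had r of -0.04 with B2_SINE and -0.08 with B1_SINE, and the log2 library total had r of -0.14 with B2_SINE and -0.18 with B1_SINE, with permutation adjusted p of 0.178 or more. The Nr5a2 level had r of 0.09 with B2_SINE (permutation adjusted p = 0.400) and -0.14 with B1_SINE (adjusted p = 0.178). Within the 6 groups the mitochondrial score had a positive r with both rows in 6 of 6 (0.27 to 0.60 for B2_SINE), yet 0 of 72 correlations of the rows with these properties in single groups passed adjustment by Pearson's r. By Spearman's rho 1 of the 72 passed, that between B1_SINE and Nr5a2 among experiment 1 controls (n = 24, rho -0.66, permutation p = 0.0006, adjusted p = 0.0432; r = -0.61, permutation p = 0.00166, adjusted p = 0.0853). Without the 2 embryos farthest from the median its r was -0.46. In the other 5 groups rho between B1_SINE and the Nr5a2 level lay between -0.25 and 0.09. By Spearman's rho the mitochondrial score had 0.44 with B2_SINE and 0.36 with B1_SINE (permutation adjusted p = 0.00013 and 0.00162), the 2-cell score 0.46 and 0.24 (adjusted p = 0.00013 and 0.0406) and genes detected 0.27 and 0.20 (adjusted p = 0.0222 and 0.0832). Leaving out the 2 embryos farthest from the median of each measure left the pooled r with B2_SINE at 0.45 for the mitochondrial score, 0.42 for the 2-cell score and 0.25 for genes detected.

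Many genes varied with the rows. Limma-trend, with group as a term, called 3670 of 13450 features (27.3%) as varying with B2_SINE, 1697 in the same direction (12.6%) and 1973 in the opposite one (14.7%). For B1_SINE it called 2669 (19.8%), 1207 in the same (8.97%) and 1462 in the opposite direction (10.9%). These counts lean on experiment 1: without it 692 features varied with B2_SINE and 94 with B1_SINE, and without experiment 3 they were 2245 and 720. With TMM scaling in place of shares of the library the counts were 3782 for B2_SINE and 2876 for B1_SINE.

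The genes most like B2_SINE followed it far more closely than B1_SINE did. Among genes of at least 10 CPM with a proper symbol, Pola2, a subunit of DNA polymerase alpha, had r = 0.92 with B2_SINE over 111 embryos and between 0.90 and 0.95 in each of the 6 groups (limma-trend adjusted p = 1.04e-38). Churc1, a zinc finger protein, had r = 0.90 and Uchl5, a deubiquitinase of the proteasome, r = 0.89. Brms1l, a part of the Sin3 histone deacetylase complex, had r = 0.89, Snf8, an ESCRT-II subunit of endosomal sorting, r = 0.88, and the vesicle SNARE Vamp3 r = 0.87. The cytochrome oxidase assembly factor Cox14 had r = 0.86. Cpox, an enzyme of heme synthesis, had r = 0.85 and Prodh2, a mitochondrial dehydrogenase of hydroxyproline breakdown, r = 0.85. Those with the most negative r were Psmd3 (r = -0.57), Dnm2 (r = -0.56), Ccp110 (r = -0.55), Dnaja3 (r = -0.53) and Ipo9 (r = -0.52), a proteasome subunit, a dynamin, a centriolar protein, a mitochondrial co-chaperone and an importin.

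Most genes that followed B2_SINE closely hold the repeat's own letters in an exon. Of the 100 genes with the highest r with B2_SINE (r of 0.59 or more), 79 held at least 31 bases of the B2 run in an annotated exon, on either strand, against 798 of all 13381 genes that could be matched (5.96%). The 79 are 9.90% of the genes with the run. Of the 100 genes with the lowest r, 8 held it. Of the 9 genes named above for a high r with B2_SINE, 8 held the B2 run and Cox14 could not be matched.

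At the level of single transcripts the link was closer. Of 25029 matched transcripts that passed the low-count filter, 728 held the B2 run and 259 of them (35.6%) had r above 0.5 with B2_SINE, against 121 of 24301 (0.498%) without it. The median r was 0.36 with the run and -0.03 without it. Of the 380 transcripts with r above 0.5, 259 (68.2%) held the run. Both strands of the repeat gave a positive median r, which was 0.29 for 396 transcripts with the run on the strand of the transcript only and 0.43 for 321 with it on the opposite strand only. The median r was 0.27 for transcripts that held 1 to 10 of the run's stretches of 31 bases, 0.43 with 11 to 30 and 0.50 for the 40 transcripts with over 30. It was 0.67 for transcripts shorter than 1000 bases, 0.33 for those of 1000 to 3000 bases and 0.30 for longer ones. By annotated class it was 0.61 in processed transcripts, 0.44 in retained introns and 0.21 in protein-coding transcripts, beside 0.00, 0.00 and -0.04 in the same classes without the run. Neighbouring classes differ in other respects too, and no test was made between them.

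**Figure D4:**
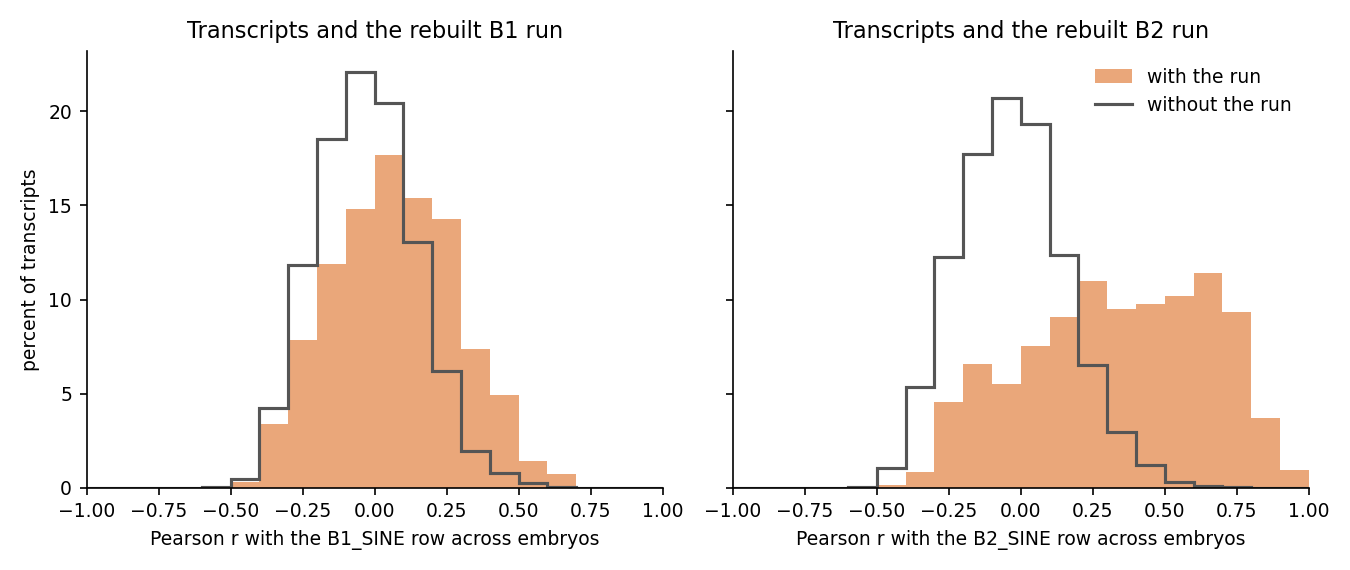
Distribution of Pearson's r with the B1_SINE row (left) and the B2_SINE row (right) over 111 embryos centred on group means, for transcripts with the rebuilt run of that family (filled) and without it (line), as percent of transcripts in bins of 0.1. For B2 the filled distribution reaches far right, with 35.6% above 0.5 against 0.498% of the others, while for B1 the filled distribution is shifted by less, with 2.17% above 0.5 against 0.300%.

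Transcripts of the same gene differed by whether they held the run. In 458 genes with tested transcripts of both kinds, the median r with B2_SINE was 0.38 for those with the run and -0.08 for those without, and the one with the run was higher in 421 genes (91.9%). Only the transcripts with the run exceeded 0.5 in 167 of them. Pola2, on chromosome 19 (5940542 to 5964202, minus strand, GRCm38), has a protein-coding transcript of 2391 bases, ENSMUST00000165143.2, that holds B2 letters at bases 2310 to 2350, near its end. It has another of 2421 bases, ENSMUST00000025752.14, with none. In experiment 1 the transcript with the run had a median of 277 CPM (106 to 498) in knockdown embryos, against 116 CPM (49.0 to 387) in control embryos. The transcript without it had 5.26 CPM (2.48 to 8.69) in knockdown embryos, against 5.41 CPM (1.75 to 9.85) in control embryos. With B2_SINE the transcript with the run had r = 0.93 and the one without had r = -0.06. They differ little in length but much in level, with means of 245 and 5.42 CPM. The part of counting error at the low level in this split was not tested. The transcript with the run took 97.8% of the estimated counts of Pola2.

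**Figure D5:**
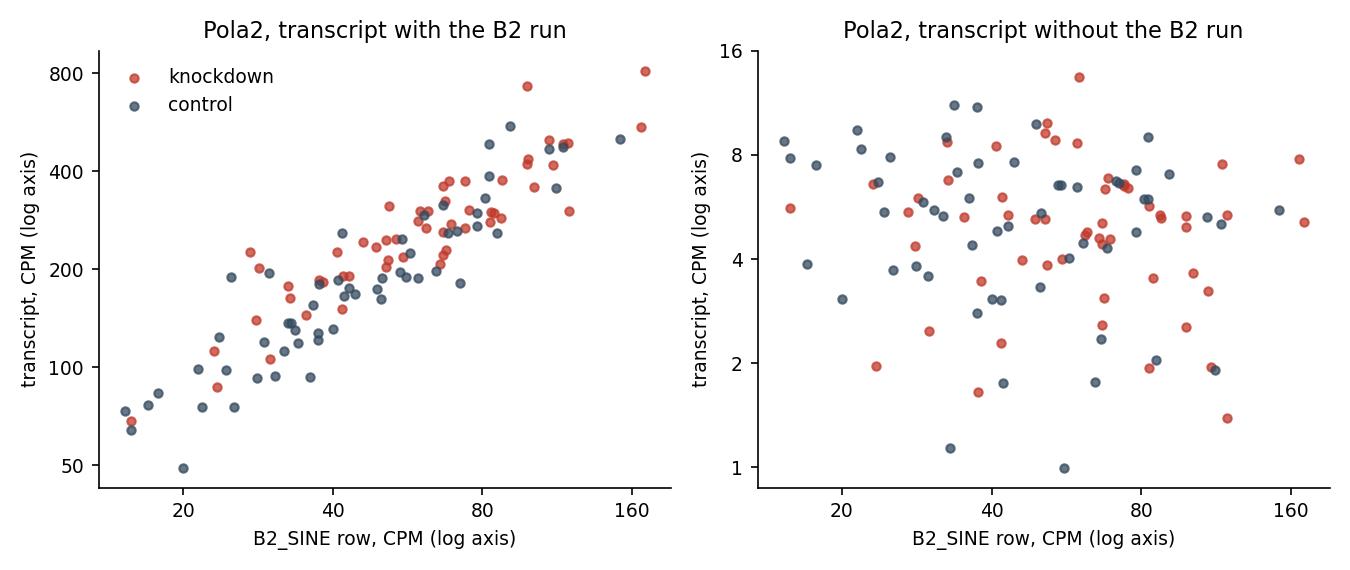
CPM of the Pola2 transcript with the B2 run (left) and without it (right) against the B2_SINE row in each embryo, log axes, knockdown in red and control in dark blue-grey. The transcript with the run rises along with the row (r = 0.93) and the other does not (r = -0.06).

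Other genes showed the same split. For Uchl5 (chromosome 1, 143777272 to 143807466, plus strand) a retained-intron transcript of 461 bases with the run had r = 0.90 and the protein-coding transcripts without it had 0.15 and -0.04. For Snf8 (chromosome 11, 96034885 to 96047430, plus strand) a processed transcript with the run had r = 0.90 and the coding one without it -0.10. For Ing4 (chromosome 6, 125039760 to 125049265, plus strand), a subunit of a histone acetyltransferase complex, the run lies on the opposite strand of a retained-intron transcript with r = 0.83. Its coding transcripts without the run had -0.10 and -0.22. In Uchl5, Snf8 and Ing4 the transcript with the run also had the higher level, with a mean of 63.5 CPM or more, against 11.2 CPM or less without it. Brms1l (chromosome 12, 55836324 to 55869736, plus strand) and Churc1 did not follow the pattern fully. Of the Brms1l transcripts with 32 such stretches each, one had r = 0.92 and the other r = -0.10. The Churc1 transcripts held 15 such stretches each, and their r with B2_SINE was 0.89, 0.54 and 0.13. Kallisto divides a read that fits several index entries among them by estimation. How much of the B2_SINE row and of these transcripts comes from the same reads was not tested, since no reads were used here.

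For B1_SINE the differences by the run were smaller in size. Of 1059 transcripts with the B1 run 23 (2.17%) had r above 0.5 with B1_SINE, against 72 of 23970 (0.300%) without it, and the median r was 0.06 with and -0.03 without the run. In 644 genes with transcripts of both kinds the median r was 0.07 for transcripts with the run and -0.08 for those without, and the one with the run was higher in 486 (75.5%). Only the transcripts with the run exceeded 0.5 in 11 of them. Of the 100 genes most like B1_SINE, 27 held the B1 run and 56 the B2 run, where 10.6% and 5.96% of all genes did. The highest r was that of Il11, an interleukin of the IL-6 family, at 0.63, then Brms1l at 0.62, the kinase Tbk1 of innate immune signalling at 0.61 and Ing4 at 0.61. After them came Siglec1, a sialic acid receptor of macrophages, at 0.60, Cox14 at 0.60, Pola2 at 0.59, Uchl5 at 0.59, Vamp3 at 0.58 and Cpox at 0.57. Of these 10, 8 were at least as close to B2_SINE as to B1_SINE, the exceptions being Il11 (0.62 with B2_SINE) and Tbk1 (0.49). Tbk1 and Vamp3 held the B1 run, and Cox14 could not be matched. Amd1, the enzyme that commits to polyamine synthesis, had the most negative r at -0.58, followed by Gpbp1 at -0.52, Katnbl1 at -0.51, Ap1m2 at -0.50 and Ccp110 at -0.50.

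The knockdown difference in transcripts that hold the B2 run ran with that of the row. Their median log2 fold change, knockdown over control, was 0.24, beside 0.00 over all transcripts tested, and 83.0% were positive, beside 49.8%. By experiment the median was 0.41 in experiment 1, -0.08 in experiment 2 and 0.21 in experiment 3, against 0.88, -0.32 and 0.41 for the B2_SINE row, and without experiment 1 it was 0.12. The fit on transcripts called 7 of the 728 higher and 0 lower, where it called 0.222% of all transcripts higher and 0.0871% lower. Among the 7 were transcripts of Plk4, the kinase that starts centriole duplication (log2 ratio 0.56 ± 0.14, edgeR adjusted p = 0.0364, r = 0.87 with B2_SINE), and of Pdzd2 (0.93, SE 0.20, adjusted p = 0.0088, r = 0.73). They were chosen here after their values were seen. In the 1059 transcripts with the B1 run the median was 0.07 overall and 0.08, 0.04 and 0.07 in the 3 experiments, with 17 called higher and 1 lower. Among those higher were Nras, a RAS GTPase (0.48, SE 0.096, edgeR adjusted p = 0.0025), and Eif2a, a translation initiation factor (0.52, SE 0.092, adjusted p = 0.0002), named after their values were seen.

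The same was visible among genes. Of the 84 matched genes that rose in the knockdown, 18 (21.4%) held the B2 run and 22 (26.2%) the B1 run in an exon, beside 5.96% and 10.6% of all matched genes. They are 2.26% of the genes with the B2 run and 1.56% of those with the B1 run. Of the 63 genes that fell, 1 (1.59%) held the B2 run and 7 (11.1%) the B1 run. Of the 9 genes named for a high r with B2_SINE, 2 rose on this contrast by edgeR, Pola2 by a log2 ratio of 0.51 ± 0.13 (SE, adjusted p = 0.032) and Cox14 by 0.45 ± 0.12 (adjusted p = 0.037). The other 7 had positive log2 ratios, among them Churc1 with 0.41 ± 0.18 (adjusted p = 0.381), and were not called. This contrast uses the same embryos as the row's own, so these values are not separate support for it.

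The lists described here were chosen with earlier results of these data known. None of the 17 tested subunits of RNA polymerase III and none of its 20 tested factors was called in either direction (edgeR, 1.1% of all features called), a count that this share would also give, and their median log2 fold changes were 0.05 and -0.03 beside 0.02 over all features. Over the factors' 67 transcripts the median was -0.15 in experiment 1, 0.19 in experiment 2 and -0.05 in experiment 3. Some of the listed subunits are shared with other RNA polymerases, and the factors include Maf1, a repressor of RNA polymerase III. Across embryos the members of both lists that varied with a row did so in the opposite direction. Of all features 14.7% varied opposite to B2_SINE and 10.9% opposite to B1_SINE. These shares are larger among features of at least 10 CPM, where 1839 of 9043 varied opposite to B2_SINE and 1463 opposite to B1_SINE. Limma-trend called 10 of 17 subunits as varying opposite to B2_SINE and 0 along with it, and 6 opposite to B1_SINE and 0 along with it. Of the factors, 6 of 20 varied opposite to B2_SINE and 12 opposite to B1_SINE, with 0 along with either. Gtf3c2, a subunit of the B box factor TFIIIC, had -0.42 with B2_SINE and -0.46 with B1_SINE. The noncoding genes of this polymerase, such as 7SK and RMRP, gave 0 of 13 names that could be tested. Mature RNAs without a poly(A) tail are poorly primed by oligo dT.

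For the other lists the shares over all features are 12.6% along with and 14.7% opposite to B2_SINE, and 8.97% along with and 10.9% opposite to B1_SINE. Level matters to these shares. Of the 9043 features of at least 10 CPM, 981 varied along with and 1839 opposite to B2_SINE. For B1_SINE these were 639 and 1463. The edgeR fit of knockdown over control called 1.1% of all features, a share at which lists this short often hold 0 called genes. Of 23 genes of repeat silencing 0 were called in the knockdown, and 5 varied opposite to B2_SINE and 2 opposite to B1_SINE, Cbx5, a heterochromatin protein, with r = -0.47 to B2_SINE. The repeat silencing gene with the largest r with B1_SINE was Morc3 at -0.29. Of 15 genes listed for RNA binding and editing, not all of them for duplexes, 0 were called, and 5 varied opposite to each row and 1 along with each. Adar, the editing enzyme, had r = -0.41 with B2_SINE and Hnrnpc r = -0.45 with B1_SINE. Of 10 signal recognition particle genes 0 were called, 4 varied opposite to B2_SINE (Srprb, r = -0.39) and 0 with B1_SINE, where Srp54a had r = -0.24. Of 13 heat shock genes 0 were called, and 4 varied along with B2_SINE and 0 with B1_SINE, Hspa1b with r = 0.36 to B2_SINE, while Hspd1 had r = 0.24 with B1_SINE. Of 26 transcripts of the 2-cell wave 0 were called, and 17 varied along with B2_SINE and 2 opposite, and 6 along with B1_SINE and 2 opposite, with Zscan4e at r = 0.46 with B2_SINE and 0.34 with B1_SINE. Of 39 oocyte transcripts 0 were called, and 3 varied along with B2_SINE and 1 opposite, and 1 along with B1_SINE and 5 opposite. Dppa3 had r = -0.37 with B1_SINE and Nlrp5 r = 0.34 with B2_SINE. Of 15 nuclear receptors Nr5a2 alone was called lower, and 1 varied along with each row and 1 opposite to each, Nr1h3 with r = -0.37 to B2_SINE, while Nr1d1 had r = 0.30 with B1_SINE. Of 4 tested cumulus and granulosa markers 0 were called and 1, Lhcgr, varied along with B2_SINE (r = 0.39) and 0 with B1_SINE.

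The mitochondrial genome was the exception. Of its 13 protein-coding genes 6 rose in the knockdown and 0 fell, with a median log2 fold change of 0.31, and 13 of 13 varied along with B2_SINE and 12 of 13 along with B1_SINE. Over all features 0.632% were called higher and 0.468% lower. mt-Co2, a subunit of cytochrome c oxidase, rose by a log2 ratio of 0.42 ± 0.093 (SE, edgeR adjusted p = 0.00666) and had r = 0.54 with B2_SINE. mt-Nd2, a subunit of complex I, rose with 0.44 (SE 0.086, edgeR adjusted p = 0.000817) and had r = 0.42 with B1_SINE. With library totals in place of TMM their transcripts had a median log2 ratio of 0.26, beside 0.30 with TMM. By experiment that median was 0.15 in experiment 1, 0.07 in experiment 2 and 0.48 in experiment 3, an order that is not that of B2_SINE. None of the 13 holds either run. Mitochondrial transcripts and the repeat rows thus moved together, and the part of either in the other was not tested.

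Promoters with pieces of the runs were few. A stretch of 20 bases of the B1 run occurred in 71 of 32851 RefSeq promoters (0.216%) and one of the B2 run in 110 (0.335%). Of the 28 tested genes with a B1 stretch 1 was called higher and 0 lower, with a median log2 fold change of 0.07, and of the 14 with a B2 stretch 0 were called, with a median of 0.02, beside 0.02 over all features. The edgeR fit called 0.632% of all features higher and 0.468% lower, and these genes are too few to be set against those shares. Their median r with the row was -0.09 for B1 and -0.07 for B2, beside 0.00 and -0.01 over all features.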

How the data were processed

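RNA-seq with SmartSeq2 and oligo dT priming was done on single embryos, per the labels. The submitters' processing notes name Trim Galore 0.6.2 and kallisto 0.46.1, with mm10 and hg19 among the builds and no role given. The authors deposited estimated counts of each transcript, which are not scaled to depth. The authors also deposited a batch-corrected table, treated here as a score because its method is not given in the sources, and tables of comparisons that hold log2 fold changes beside p-values, per the file headers. Estimated counts were summed to 36134 gene identifiers, beside the repeat rows, and rounded. Transcripts without a gene, a median of 0.567% of counts, were left out. edgeR 4.0.16 (filterByExpr by arm, TMM, quasi-likelihood test, experiment as a term, Benjamini-Hochberg over 13451 features, threshold 0.05) tested arms, and a model of the 6 groups tested experiments. CPM outside these fits are shares of the column total, with a pseudocount of 1 on the log2 scale. Correlations and limma-trend (limma 3.58.1) used values centred on group means. Permutation tests were two-sided, with 100000 draws or exact. Genes were named by rule: the 10 highest and 5 lowest r with each row among genes of at least 10 CPM, Nr5a2, and the member of each list with the largest absolute r. Some genes that the rule picks are not reported here. Positions and exons are from GENCODE M21, matched by versioned identifier for 104800 of 106046 transcripts. The fits were tested on simulated data. The members and lists were chosen with earlier results of these data known, and the search for the rebuilt runs was added after values were seen. Depth ran from 1.97 to 21.4 M counts per embryo (M stands for 1000000).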

Additional observations from a re-analysis of the deposited data

Results flagged for a closer look

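The B2_SINE difference between knockdown and control embryos was not the same in the 3 experiments. The mean log2(CPM + 1) of knockdown minus control embryos was 0.88 (SE 0.21, 15 of 16 knockdown embryos above the control median) in experiment 1, -0.29 (SE 0.33, 3 of 16) in experiment 2 and 0.35 (SE 0.20, 17 of 23) in experiment 3. A permutation of the arms within experiments gave p = 0.01229 for the difference between these effects, or 0.0369 adjusted over the 3 measures tested in this way, while the interaction test over all features did not call it (edgeR adjusted p = 0.651). Experiment 2 has 7 control embryos. In no measure of that control group did a single embryo stand apart, over 3 checks (B1_SINE, B2_SINE and their ratio). The cause of the difference was not tested.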

How the results depend on the processing

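Of 187 values recomputed under another choice, 150 were taken as kept. That meant the same direction and side of the threshold, or for counts a value within 1.5 times the main count. Medians over transcripts with a run have no p-value, and were taken as kept when they moved by less than the median SE of the transcripts' log2 ratios. That SE is for a single transcript, so the rule is a loose one for a median over many. By it the B2 median counted as kept at 0.12 without experiment 1, beside 0.24 over all embryos. The values not kept follow, and the cause was not tested. With no low-count filter B2_SINE was called (0.43, edgeR adjusted p = 0.0491) and 966 features were called. Without experiment 2 both rows were called, B1_SINE at 0.41 and B2_SINE at 0.62, and the log2 ratio of their counts differed by -0.28 (permutation p = 0.024). Without experiment 1 the count of called features was 23, the level differences were 0.13 for B1_SINE and 0.17 for B2_SINE, and 94 and 692 features varied with B1_SINE and with B2_SINE. Without experiment 3 the counts were 42, 720 and 2245, and the B1_SINE level differed by 0.25. With library total and genes detected as terms the rows were called (B1_SINE 0.32, adjusted p = 0.0407, and B2_SINE 0.46, adjusted p = 0.0276), with 305 features. Called features numbered 78 without summing transcripts, 61 (5 higher and 56 lower) in the batch-corrected table, a score tested with limma, where B1_SINE had 0.14 and B2_SINE 0.33, and 227 in DESeq2, which called neither row (adjusted p = 0.0697 for B1_SINE and 0.0584 for B2_SINE). Features varying with B1_SINE and B2_SINE numbered 940 and 2299 in knockdown embryos only, and 190 and 696 in control embryos only. Labels repeat embryo numbers between arms, but over 46 pairs of equal number the median correlation of deviations was 0.051, 16 exceeded 0.1 and 5 knockdown embryos matched best with the control embryo of their own number, so equal numbers were not taken to pair embryos. With the replicate block 19 features were called (B1_SINE 0.25, B2_SINE 0.43, neither called), against 66 for the same paired embryos with no block, a comparison chosen after seeing the data. Of the correlations, in knockdown embryos only B1_SINE with genes detected had r = 0.17 and B2_SINE with the oocyte score r = 0.015, in control embryos only B2_SINE with genes detected had r = 0.16, and with TMM scaling B1_SINE with genes detected had r = 0.18. By Spearman's rho B1_SINE had 0.24 with the 2-cell score, 0.035 with the oocyte score and 0.20 with genes detected, and B2_SINE had -0.012 with Nr5a2, 0.087 with the oocyte score and -0.26 with the library total. Without the 2 farthest embryos B1_SINE had r = 0.24 with the 2-cell score. Depth limits single embryos: at the lowest count the counting SD was 10.4% of B1_SINE and 13.5% of B2_SINE.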
